A study of Oryctolagus cuniculus with 36 samples.

Results

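The 54 genes described here carry out mitosis: cyclins and kinases of mitotic entry, the spindle checkpoint, kinesins, kinetochore and spindle proteins, the chromosomal passenger complex, cytokinesis factors, condensin and the anaphase machinery. They were chosen by symbol, and all 54 were found among the 23394 genes of the table. Rabbit liver RNA was sequenced in a study of CRISPR/Cas9 editing against hereditary tyrosinemia type I of newborn rabbits, a disease of the tyrosine-breaking enzyme fumarylacetoacetate hydrolase (FAH). Titles form the groups FK, FA and wild type (WT), each with 3 numbered sets of 4 libraries. The labels do not spell out FK or FA and give no strain, allele, vector, dose or age for any group, and every sample, WT included, carries the same tyrosinemia label. All livers were treated with trypsin before TRIzol extraction. The 4 libraries of a set were summed to 1 replicate, so that n = 3 sets per group. No label ties sets to separate animals, so the p-values rest on set-to-set spread alone, and part or all of that spread may be technical.

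In dividing cells, cyclin-dependent kinase 1 bound to A- and B-type cyclins drives entry into mitosis. Condensin and topoisomerase II compact and untangle the chromosomes, kinesins build the spindle, and the checkpoint holds back anaphase until kinetochores are attached. The anaphase-promoting complex with CDC20 and UBE2C then destroys cyclin B and securin, separase cuts cohesin, and centralspindlin with anillin divides the cell. Most of these genes are transcribed together late in the cell cycle. Adult hepatocytes rarely divide, whereas hepatocytes of growing or regenerating liver and blood precursors housed in fetal liver do.

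Libraries held 11.7 to 16.1 M counts in FK, 15.1 to 22.5 M in FA and 14.2 to 18.7 M in WT, and sets 53.2 to 78.6 M. Levels are in CPM, counts per M counts after scaling by TMM. FAH stood at 16.4, 11.8 and 14.6 CPM in the FK sets, 25.7, 24.7 and 19.6 CPM in the FA sets and 237, 271 and 218 CPM in the WT sets, so neither FK nor FA overlapped WT at the gene of the disease. The summed level of 9 hepatocyte markers was 145924 to 233557 CPM in FK, 207945 to 272765 CPM in FA and 194379 to 259608 CPM in WT. ALB made up most of this sum in every set, so it says little about the other hepatocyte markers. FK set 3 stood apart from the other FK sets. Across genes, which are not independent, its log levels correlated at r = 0.921 and 0.899 with FK sets 1 and 2 but at 0.982 to 0.986 with the FA sets. Results on FK are therefore also given without FK set 3, a choice made after its values were seen. That fit holds only FK sets 1 and 2. Leaving out the set that differs narrows the spread within FK. The smaller p-values of that fit follow in part from this choice and are no separate support.

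The mitosis and spindle genes were high in FK sets 1 and 2 and low in FK set 3, FA and WT. Their summed level was 961, 1952 and 171 CPM in FK sets 1, 2 and 3, 169, 161 and 204 CPM in FA and 214, 259 and 192 CPM in WT. In single libraries the sum was 863 to 1054 CPM in FK set 1, 1742 to 2148 CPM in FK set 2 and 162 to 175 CPM in FK set 3, against 155 to 210 CPM over the 12 FA libraries and 186 to 268 CPM over the 12 WT libraries. All 8 libraries of FK sets 1 and 2 lay above the other 28. In bulk liver, more dividing cells and more of these transcripts per cell cannot be told apart.

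**Figure D1:**
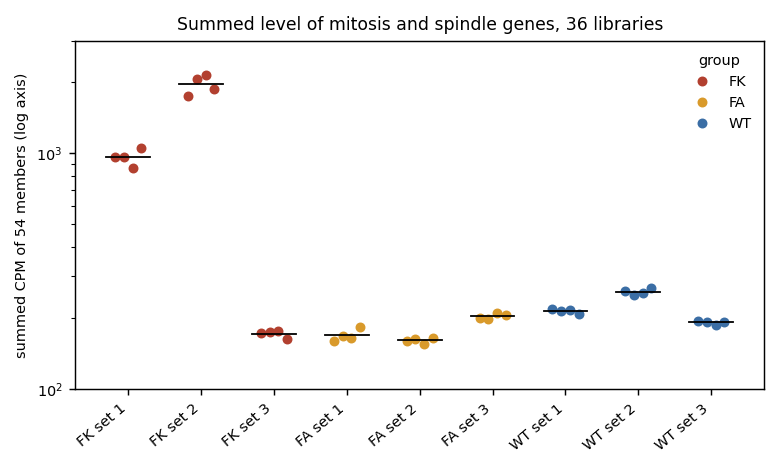
Summed CPM of the 54 genes (log axis) in each of the 36 libraries, by set; points are libraries and lines the mean of the 4 libraries of a set. The libraries of FK sets 1 and 2 lie between 863 and 2148 CPM, and all others between 155 and 268 CPM.

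Of the 54 genes, 24 rose in FK relative to WT and none fell, at a Benjamini-Hochberg adjusted p under 0.05 in edgeR's quasi-likelihood test over all 14939 genes tested, of which 3.04% were called higher and 1.73% lower. The fitted log2 changes of the 24 ran between 2.67 and 5.71. A further 25 genes had log2 changes of 3.10 to 6.24 with adjusted p of 0.0504 to 0.0879, above the threshold. The remaining 5, AURKA, PRC1, SMC2, BUB3 and PTTG1, had adjusted p of 0.111 to 0.903. The median log2 change of the 54 was 4.49, beside 0.05 over all genes tested. Set by set, the medians of the log2 ratio to the WT mean were 4.43, 5.42 and 0.15 in FK sets 1, 2 and 3.

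Calls depended on which sets were in the fit. Without FK set 3, 49 of the 54 were called higher, beside 18.7% of all genes, and without any other set of the 3 groups none was called. The shares of all genes called without those other sets are not given here. A fit of FK and WT alone also called none, beside 0.296% of all genes. DESeq2 on all 9 sets called 49 higher, beside 11.0% of all genes, and 1 lower, beside 5.96%. In 50 members FK sets 1 and 2 held the 2 highest of the 9 values, 92.6% beside 22.0% of all genes tested, the exceptions being AURKA, PRC1, BUB3 and SMC2. All FK sets lay above all WT sets in 19 members, 35.2% beside 13.9% of all genes, and below them in none, beside 13.4%. FK set 3 lay above all 3 WT sets in 19 members and below all 3 in 17, that is 35.2% and 31.5%, near the shares over all genes of 34.2% and 33.2%.

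**Figure D2:**
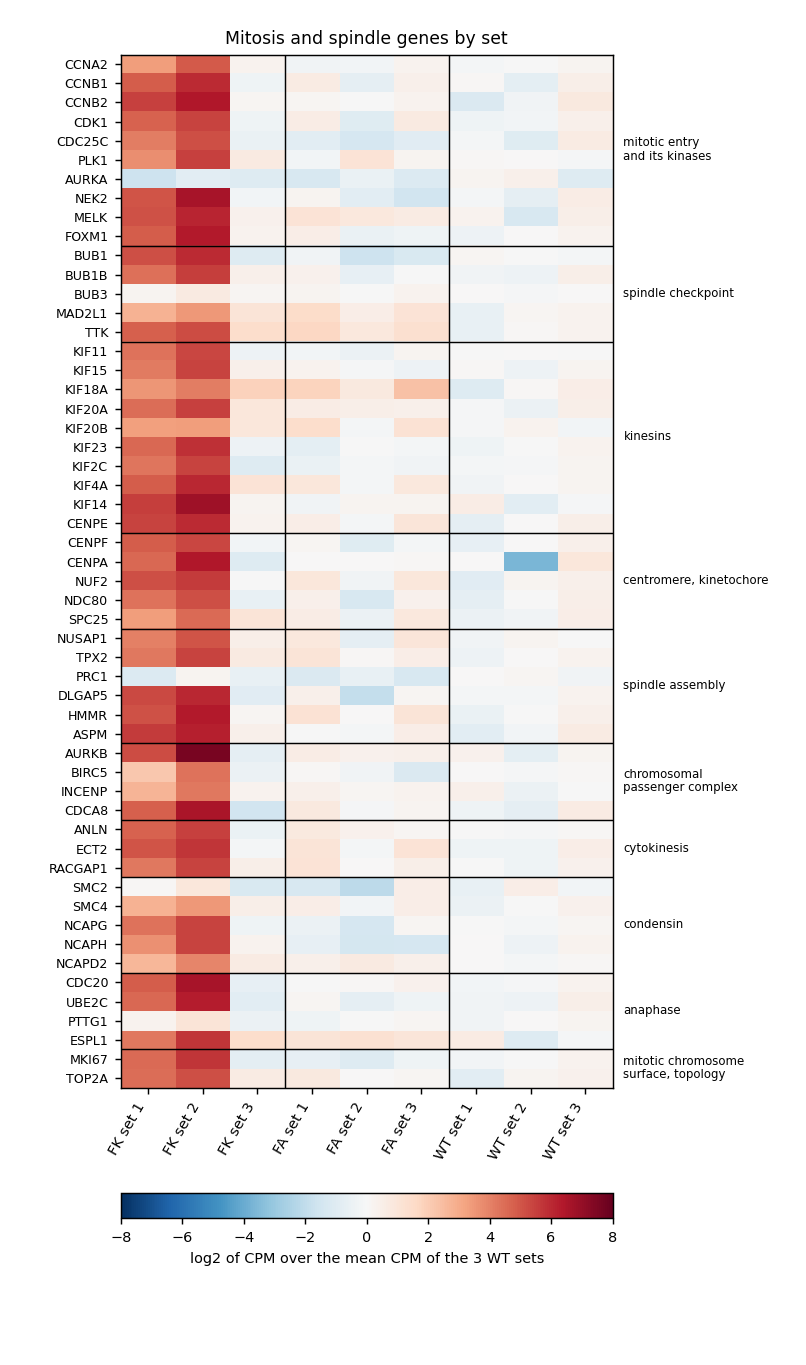
Log2 ratio of CPM to the mean of the 3 WT sets for each of the 54 genes (rows, grouped by role) in the 9 sets (columns; FK, FA, WT). Red columns mark FK sets 1 and 2, with medians of 4.43 and 5.42, while FK set 3 (median 0.15) and the FA sets are near white for most genes.

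The cyclins and their kinase showed this contrast in each gene. CCNA2, the cyclin of replication and early mitosis, stood at 10.1, 30.7 and 1.23 CPM in FK sets 1, 2 and 3, at 0.814, 0.859 and 1.20 CPM in FA and at 0.894, 0.966 and 1.17 CPM in WT. CCNB1, the main mitotic cyclin, stood at 14.3, 31.1 and 0.389 CPM in the FK sets, 0.786, 0.292 and 0.653 CPM in the FA sets and 0.511, 0.290 and 0.664 CPM in the WT sets. CCNB2, a cyclin B localised to the Golgi, had 19.6, 36.4 and 0.490 CPM in FK, against 0.491, 0.421 and 0.535 CPM in FA and 0.192, 0.354 and 0.761 CPM in WT. In CCNA2 all 3 FK sets lay above WT, FK set 3 by a small margin, whereas FK set 3 lay within the WT range in CCNB1 and CCNB2. Of the 3 cyclins, CCNB2 rose by a log2 change of 5.43 (SE 1.26, adjusted p = 0.0487), while CCNA2 at 3.79 (SE 0.92, adjusted p = 0.0506) and CCNB1 at 4.96 (SE 1.23, adjusted p = 0.0533) did not pass. Without FK set 3 their changes were 4.32 (SE 0.45, adjusted p = 0.000198) for CCNA2, 5.52 (SE 0.52, adjusted p = 0.000131) for CCNB1 and 5.99 (SE 0.52, adjusted p = 8.55e-05) for CCNB2. CDK1, the kinase the mitotic cyclins activate, had 19.4, 30.9 and 0.574 CPM in the FK sets, 1.08, 0.373 and 1.20 CPM in the FA sets and 0.575, 0.628 and 0.988 CPM in the WT sets, with FK set 3 just below the lowest WT set. Its log2 change of 4.53 (SE 1.15, adjusted p = 0.0551) did not pass.

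Among the other regulators of mitotic entry, PLK1 had the smallest and AURKA the largest p. PLK1, the polo kinase that activates mitotic entry and centrosome maturation, stood at 13.9, 45.7 and 1.74 CPM in FK sets 1, 2 and 3, at 0.898, 2.28 and 1.22 CPM in FA and at 1.10, 1.08 and 0.972 CPM in WT. It rose by 4.28 (SE 0.98, adjusted p = 0.0482) on the log2 scale, and all 3 FK sets lay above WT. AURKA, the kinase of centrosomes and spindle poles, had 19.0, 33.5 and 28.6 CPM in the FK sets, 24.5, 41.2 and 27.6 CPM in the FA sets and 69.4, 79.9 and 28.7 CPM in the WT sets. It was at -1.13 (SE 0.40, adjusted p = 0.111) in FK against WT, and FK overlapped WT only through WT set 3. In the RefSeq table AURKA overlaps CSTF1, a polyadenylation factor gene, and the labels do not say whether the libraries kept the strand, so reads of the 2 genes may be mixed. DESeq2 and limma-voom called AURKA lower in FK (adjusted p = 0.0478 and 0.0109), the only member below WT by either test. Of the remaining 4, FOXM1, a transcription factor of late cell cycle genes, and the kinase MELK rose by 5.22 and 5.11. The kinase NEK2, which separates centrosomes, and the phosphatase CDC25C, which activates CDK1, were at 5.41 and 4.12 without a call (adjusted p = 0.0532 and 0.0638). In all, 4 of the 10 genes of mitotic entry rose, and 9 were called higher without FK set 3, where the median log2 change of the 10 was 5.30.

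Of the 5 checkpoint genes 3 rose, and their fitted log2 changes lay between 0.37 and 5.04. TTK, the kinase that starts checkpoint signalling at unattached kinetochores, stood at 9.65, 13.2 and 0.929 CPM in FK sets 1, 2 and 3, at 1.14, 0.648 and 0.853 CPM in FA and at 0.240, 0.387 and 0.437 CPM in WT. MAD2L1, the subunit that inhibits CDC20, had 16.7, 26.6 and 4.92 CPM in the FK sets, 6.78, 3.47 and 5.15 CPM in the FA sets and 1.63, 2.69 and 2.98 CPM in the WT sets. In both genes every FK set and every FA set lay above every WT set. TTK rose by 4.47 (SE 0.86, adjusted p = 0.0368) in FK and MAD2L1 by 2.72 (SE 0.57, adjusted p = 0.0414).

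BUB1, the kinase that recruits other checkpoint proteins to the kinetochore, stood at 10.9, 19.8 and 0.152 CPM in FK, against 0.253, 0.0972 and 0.134 CPM in FA and 0.351, 0.306 and 0.275 CPM in WT. FK set 3 lay below the lowest WT set here, and the change of 5.04 (SE 1.28, adjusted p = 0.0555) did not pass. BUB1B, part of the complex that inhibits anaphase, had 10.2, 22.2 and 0.642 CPM in the FK sets, 0.617, 0.308 and 0.469 CPM in the FA sets and 0.399, 0.370 and 0.680 CPM in the WT sets and rose by 4.5 (SE 1.04, adjusted p = 0.0481). BUB3, a scaffold that binds BUB1 and BUB1B, had 39.8, 55.7 and 38.0 CPM in the FK sets, 40.9, 33.6 and 41.2 CPM in the FA sets and 35.4, 32.3 and 35.9 CPM in the WT sets. FK set 3 was above WT in BUB3 too, but the difference was small, at 0.37 (95% interval -0.07 to 0.80, adjusted p = 0.257) on the log2 scale. With FK set 3 left out 4 of the 5 were called higher, at a median log2 change of 4.98 over the 5, and BUB3 was not (adjusted p = 0.107).

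Kinesins, the microtubule motors of the spindle, were the role with the most calls. Of the 10, 7 rose, and all 10 were called higher without FK set 3, at log2 changes of 3.29 to 6.27. Differences in calls between roles were not tested. Called adjusted p reached 0.0499 and uncalled ones began at 0.0504. The median log2 change of the kinesins was 4.45, and other roles had medians of 4.23 to 4.85, apart from condensin at 2.94. Their summed level was 137, 264 and 10.02 CPM in FK sets 1, 2 and 3, 10.9, 6.67 and 12.01 CPM in FA and 6.09, 6.67 and 7.44 CPM in WT. KIF11, which pushes the spindle poles apart, had 33.4, 66.8 and 1.25 CPM in the FK sets, 1.45, 1.22 and 1.92 CPM in the FA sets and 1.65, 1.71 and 1.64 CPM in the WT sets, with FK set 3 below the 3 nearly equal WT sets. KIF15, which can share the work of KIF11, had 11.3, 27.2 and 0.862 CPM in FK, against 0.786, 0.616 and 0.485 CPM in FA and 0.687, 0.499 and 0.761 CPM in WT. KIF2C, which shortens microtubules to correct wrong attachments, stood at 6.82, 14.8 and 0.169 CPM in FK sets 1, 2 and 3, at 0.239, 0.308 and 0.284 CPM in FA and at 0.319, 0.322 and 0.405 CPM in WT. KIF15 rose by 4.33 (SE 0.98, adjusted p = 0.0473), while KIF11 at 4.35 (SE 1.06, adjusted p = 0.0518) and KIF2C at 4.37 (SE 1.16, adjusted p = 0.0606) did not pass.

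Motors that move or position chromosomes rose. CENPE, which carries chromosomes to the spindle equator, stood at 19.9, 30.5 and 0.574 CPM in FK sets 1, 2 and 3, at 0.687, 0.421 and 0.937 CPM in FA and at 0.287, 0.499 and 0.648 CPM in WT. KIF4A, a motor on chromosome arms that also works at the midzone, had 8.61, 20.2 and 0.642 CPM in the FK sets, 0.561, 0.275 and 0.552 CPM in the FA sets and 0.256, 0.306 and 0.356 CPM in the WT sets. KIF18A, which damps chromosome movements, stood at 7.21, 10.7 and 2.21 CPM in FK, against 2.13, 1.09 and 3.18 CPM in FA and 0.303, 0.676 and 0.891 CPM in WT. CENPE rose by 5.15 (SE 1.16, adjusted p = 0.0471), KIF4A by 5.0 (SE 1.04, adjusted p = 0.0414) and KIF18A by 3.42 (SE 0.69, adjusted p = 0.0394). In KIF18A all FK and FA sets were above WT, in KIF4A all FK sets but not FA set 2, and in CENPE FK set 3 and WT overlapped.

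Of the cytokinesis motors, KIF20A, which brings the passenger complex to the midzone, had 12.9, 25.6 and 1.08 CPM in the FK sets, 0.842, 0.778 and 0.753 CPM in the FA sets and 0.527, 0.403 and 0.778 CPM in the WT sets. KIF20B, which acts at the midbody, had 13.7, 14.3 and 2.60 CPM in FK, against 3.73, 1.26 and 3.21 CPM in FA and 1.33, 1.71 and 1.21 CPM in WT. KIF23, the motor of centralspindlin, stood at 9.205, 21.9 and 0.287 CPM in FK sets 1, 2 and 3, at 0.224, 0.373 and 0.351 CPM in FA and at 0.303, 0.387 and 0.470 CPM in WT. FK set 3 was above every WT set in KIF20A and KIF20B and below every WT set in KIF23. KIF14, which works with PRC1 and citron kinase, had 13.7, 31.6 and 0.338 CPM in the FK sets, 0.239, 0.340 and 0.335 CPM in the FA sets and 0.431, 0.161 and 0.275 CPM in the WT sets. KIF20A rose by 4.53 (SE 0.94, adjusted p = 0.041), KIF20B by 2.85 (SE 0.65, adjusted p = 0.0473) and KIF14 by 5.71 (SE 1.29, adjusted p = 0.0471), and KIF23 was at 4.75 (SE 1.17, adjusted p = 0.0528). KIF20A overlaps the anaphase-promoting complex gene CDC23 in the RefSeq table, so its reads are uncertain in the same way as those of AURKA.

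At the centromere and kinetochore, 1 of 5 genes rose, and all 5 were called higher without FK set 3, at a median of 5.11. SPC25, a subunit of the complex that grips microtubules, had 1.84, 4.08 and 0.355 CPM in the FK sets, 0.267, 0.130 and 0.318 CPM in the FA sets and 0.128, 0.145 and 0.259 CPM in the WT sets and rose by 3.55 (SE 0.84, adjusted p = 0.0494). CENPA, the histone that marks centromeres, stood at 5.02, 17.6 and 0.101 CPM in FK sets 1, 2 and 3, at 0.210, 0.211 and 0.218 CPM in FA and at 0.208, 0.0161 and 0.389 CPM in WT. CENPA had a single count in WT set 2, and its change of 5.2 (SE 1.51, adjusted p = 0.0739) did not pass. CENPF, NUF2 and NDC80, also of the kinetochore, were at log2 changes of 4.56, 4.81 and 4.24 (adjusted p = 0.0505, 0.0504 and 0.0638).

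Spindle assembly factors held 4 calls among 6. TPX2, which activates AURKA on the spindle, stood at 24.8, 56.6 and 2.18 CPM in FK sets 1, 2 and 3, at 2.67, 1.39 and 1.92 CPM in FA and at 1.006, 1.34 and 1.62 CPM in WT, all FK sets being above WT, and rose by 4.4 (SE 0.95, adjusted p = 0.0435). PRC1, which bundles antiparallel microtubules of the midzone, had 18.7, 48.3 and 27.0 CPM in the FK sets, 18.4, 27.5 and 17.0 CPM in the FA sets and 42.2, 46.0 and 33.8 CPM in the WT sets. The FK sets lay on both sides of the WT sets in PRC1, at a log2 change of -0.38 (95% interval -1.16 to 0.41, adjusted p = 0.517). NUSAP1, HMMR and ASPM rose by 4.09, 5.28 and 5.37, and DLGAP5 was at 5.12 (adjusted p = 0.0587). When FK set 3 was left out, all but PRC1 were called higher.

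None of the 4 genes of the chromosomal passenger complex passed the test, although all 4 were high in FK sets 1 and 2. AURKB, its kinase, had 5.21, 26.8 and 0.0845 CPM in the FK sets, 0.210, 0.178 and 0.184 CPM in the FA sets and 0.176, 0.0805 and 0.162 CPM in the WT sets, with the largest fitted change of the 54 genes at 6.24 (SE 1.55, adjusted p = 0.0532). BIRC5 (survivin), which brings the complex to the centromere, stood at 5.03, 23.5 and 0.828 CPM in FK sets 1, 2 and 3, at 1.23, 0.956 and 0.502 CPM in FA and at 1.15, 1.05 and 1.21 CPM in WT. FK set 3 lay below all WT sets in BIRC5 and just above the lowest of them in AURKB. INCENP, the scaffold, and CDCA8 (borealin) were at 3.15 and 5.30 (adjusted p = 0.0544 and 0.0634), BIRC5 at 3.1 (SE 0.97, adjusted p = 0.0879). All 4 were called higher without FK set 3, with a median log2 change of 4.76.

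For cytokinesis, RACGAP1, the partner of KIF23 in centralspindlin, had 13.8, 31.5 and 1.03 CPM in the FK sets, 1.59, 0.778 and 1.05 CPM in the FA sets and 0.735, 0.580 and 0.940 CPM in the WT sets and rose by 4.36 (SE 0.99, adjusted p = 0.0473). ANLN (anillin), which organises the contractile ring, stood at 6.33, 10.7 and 0.169 CPM in FK sets 1, 2 and 3, at 0.421, 0.308 and 0.268 CPM in FA and at 0.240, 0.225 and 0.259 CPM in WT. FK set 3 was just above WT in RACGAP1 and below WT in ANLN. ANLN at 4.56 (SE 1.13, adjusted p = 0.0529) and ECT2, which switches on RhoA for the ring, at 4.84 (adjusted p = 0.0509) did not pass. All 3 were called higher without FK set 3.

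Of the 5 condensin genes 2 rose, and 4 were called higher without FK set 3. Their median log2 change was 2.94, beside 4.45 for the kinesins, a difference that was not tested. SMC4, a core ATPase subunit, had 36.6, 60.04 and 7.48 CPM in the FK sets, 7.79, 4.76 and 7.73 CPM in the FA sets and 3.98, 5.36 and 6.97 CPM in the WT sets and rose by 2.67 (SE 0.64, adjusted p = 0.0499). NCAPD2, a subunit particular to condensin I, stood at 20.9, 50.02 and 5.10 CPM in FK sets 1, 2 and 3, at 4.29, 5.49 and 4.38 CPM in FA and at 3.42, 2.93 and 3.53 CPM in WT and rose by 2.94 (SE 0.66, adjusted p = 0.0471). In both genes all FK sets lay above all WT sets.

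NCAPG, a further condensin I subunit, had 11.9, 24.2 and 0.456 CPM in FK, against 0.407, 0.227 and 0.636 CPM in FA and 0.559, 0.515 and 0.648 CPM in WT. NCAPH, which closes the condensin ring, stood at 9.80, 32.7 and 0.946 CPM in FK sets 1, 2 and 3, at 0.477, 0.292 and 0.301 CPM in FA and at 0.783, 0.580 and 0.923 CPM in WT. NCAPG was at 4.4 (SE 1.11, adjusted p = 0.0544) and NCAPH at 4.25 (SE 1.02, adjusted p = 0.0504), without a call. SMC2, the ATPase that pairs with SMC4, had 35.6, 63.8 and 14.3 CPM in the FK sets, 14.2, 8.08 and 48.6 CPM in the FA sets and 22.2, 49.6 and 29.5 CPM in the WT sets. Its sets spread widely within each group, and its log2 change was 0.17 (95% interval -1.43 to 1.77, adjusted p = 0.903). The direction for SMC2 rested on single sets, since it was -0.44 without FK set 2 and -0.08 without WT set 1.

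Among the anaphase genes, ESPL1 (separase), the protease that cuts cohesin, had 6.18, 17.3 and 0.878 CPM in the FK sets, 0.687, 0.778 and 0.636 CPM in the FA sets and 0.527, 0.161 and 0.308 CPM in the WT sets and rose by 4.6 (SE 0.97, adjusted p = 0.0414). PTTG1 (securin), its inhibitor, stood at 8.36, 13.6 and 4.83 CPM in FK sets 1, 2 and 3, at 5.37, 6.59 and 7.41 CPM in FA and at 5.56, 6.78 and 7.94 CPM in WT. ESPL1 was above WT in every FK set, whereas PTTG1 in FK set 3 was below WT, at a log2 change of 0.40 (95% interval -0.40 to 1.20, adjusted p = 0.497) that was -0.03 without FK set 2. CDC20, the activator of the anaphase-promoting complex, and UBE2C, its ubiquitin-conjugating enzyme, were at 5.38 and 5.09 (adjusted p = 0.0519 and 0.0563). With FK set 3 left out, 3 of these 4 were called higher, and PTTG1 was not (adjusted p = 0.0801).

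TOP2A and MKI67 are widely used as marks of dividing cells. TOP2A, the topoisomerase that untangles sister chromosomes, had 68.7, 114 and 5.001 CPM in the FK sets, 5.44, 3.18 and 3.51 CPM in the FA sets and 1.77, 3.59 and 4.02 CPM in the WT sets and rose by 4.32 (SE 0.94, adjusted p = 0.044). MKI67 (Ki-67), which coats mitotic chromosomes, stood at 121, 271 and 2.97 CPM in FK sets 1, 2 and 3, at 3.24, 2.53 and 3.98 CPM in FA and at 4.36, 4.93 and 6.12 CPM in WT. FK set 3 was above WT in TOP2A and below WT in MKI67. The change of MKI67, 4.68 (SE 1.18, adjusted p = 0.0548), did not pass, and it was 5.24 (SE 0.38, adjusted p = 4.41e-05) without FK set 3.

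**Figure D3:**
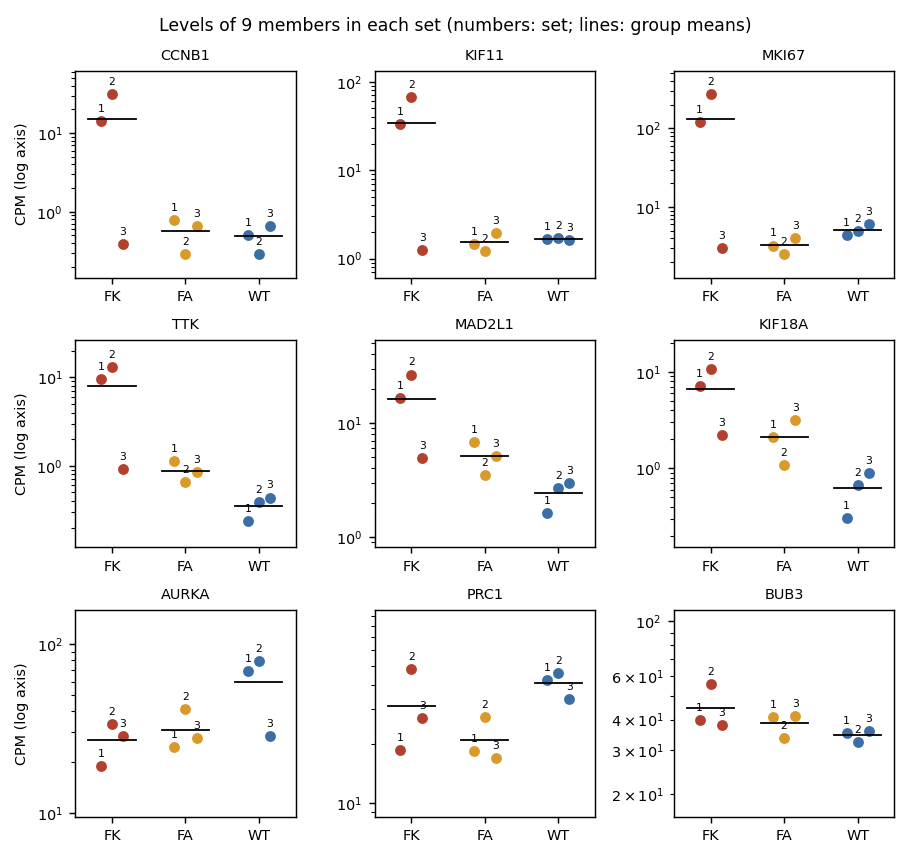
CPM of 9 genes (log axes) in the 3 sets of FK, FA and WT; numbers give the set and lines the group mean. CCNB1, KIF11 and MKI67 are high in FK sets 1 and 2 alone, TTK, MAD2L1 and KIF18A are above WT in every FK and FA set, and AURKA, PRC1 and BUB3 lack the separation of FK sets 1 and 2.

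FK sets 1 and 2 were not equal. Every one of the 54 genes was higher in set 2 than in set 1, at a median ratio of 2.11, beside 1.02 over the 14781 genes tested with a count in set 1. Ratios were lowest in KIF20B at 1.05, NUF2 at 1.37 and TTK at 1.37. They were highest in AURKB at 5.14, BIRC5 at 4.66 and CENPA at 3.51. Each ratio compares 2 sets and has no replicate check. Among the 4 libraries of a set the coefficient of variation had a median of 11.1% and 14.0% over the genes in FK sets 1 and 2, against 27.8% to 35.9% in the other 7 sets, where counts were low. A gene's count in a set had a median of 726 in FK, 48 in FA and 36 in WT. Of the 54 genes, 6 in FK, 5 in FA and 6 in WT had under 10 counts in a set of that group, and none was at 0 in any set.

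In FA relative to WT, none of the 54 genes was called, beside 0.167% of all genes. Their adjusted p ran from 0.405 to 0.999, and 3 had an unadjusted p under 0.05: KIF18A, PRC1 and AURKA. DESeq2 called none of the 54, beside 2.18% of all genes, and limma-voom called PRC1 lower (adjusted p = 0.00943). Fitted changes were above 0 in 33 genes and had a median of 0.16, beside 0.00 over all genes. The 95% interval of a gene reached a median of 2.19 log2 units to either side. FA lay above WT without overlap in 8 genes and below it in 5, that is 14.8% and 9.26%, near the shares of all genes at 12.5% and 12.4%.

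KIF18A was at 1.77 (95% interval 0.30 to 3.24, adjusted p = 0.41) in FA against WT. The checkpoint gene TTK was at 1.31 (95% interval -0.46 to 3.07, adjusted p = 0.617) and MAD2L1 at 1.08 (95% interval -0.16 to 2.32, adjusted p = 0.546). PRC1 was at -0.96 (95% interval -1.74 to -0.17, adjusted p = 0.405) and AURKA at -0.93 (95% interval -1.82 to -0.04, adjusted p = 0.472), the FA sets of PRC1 being below all WT sets and those of AURKA overlapping WT through WT set 3. MKI67 was at -0.66 (95% interval -2.99 to 1.67, adjusted p = 0.886), its FA sets all below WT, while TOP2A at 0.37 (95% interval -1.51 to 2.25, adjusted p = 0.925) overlapped. BUB3 was at 0.16 (95% interval -0.28 to 0.60, adjusted p = 0.838) and SMC2 at -0.52 (95% interval -2.12 to 1.09, adjusted p = 0.866).

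In 5 genes every FK and every FA set lay above every WT set: MAD2L1, TTK, KIF18A, NCAPD2 and ESPL1. This is 9.26% of the 54, beside 5.27% of all genes tested. With FK sets 1 and 2 left aside, FK set 3 and the FA sets lay above WT in the same 5 genes. That is 9.26%, near the share of 10.7% over all genes. KIF20B had the same order except for FA set 2, at 1.26 CPM, which lay inside the WT range. FK and FA are here both set against the same WT sets, so the 2 comparisons are not independent.

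**Figure D4:**
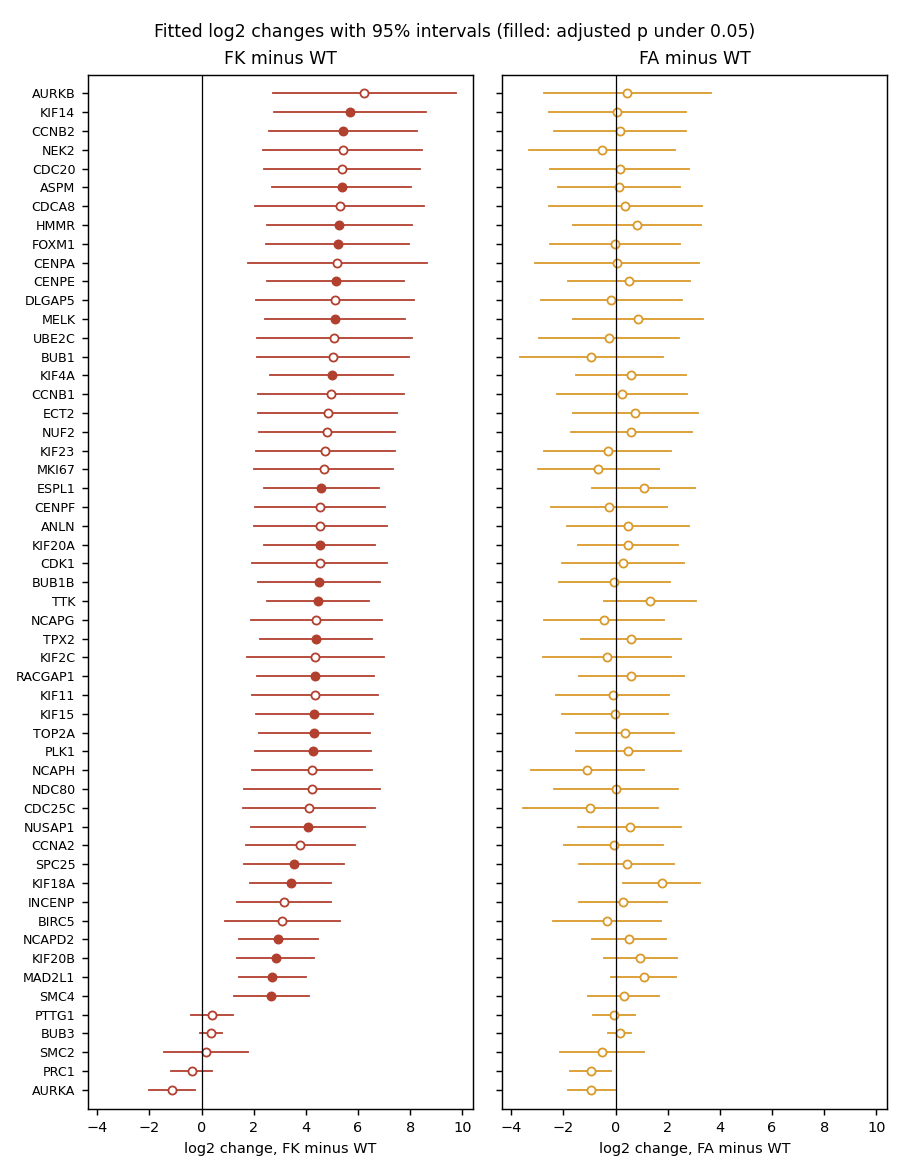
Fitted log2 change with its 95% interval for FK minus WT and FA minus WT, 54 genes ordered by FK minus WT; filled points have adjusted p under 0.05. The 24 filled points all lie at 2.67 or above for FK minus WT, and there are none for FA minus WT.

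In FA relative to FK, none of the 54 genes was called, beside 0% of all genes, although 49 had an unadjusted p under 0.05. The median log2 change was -4.25, beside -0.02 over all genes. Leaving out FK set 3 gave 49 called lower in FA, beside 18.1% of all genes, and DESeq2 on all sets called 48 lower, beside 8.75%. FA lay below FK without overlap in 9 genes, 16.7% beside 8.99% of all genes: CCNA2, CDC25C, BUB1B, KIF15, KIF20A, KIF4A, SPC25, NCAPH and ESPL1. FK set 3 thus stood above all FA sets in these 9 and inside or below the FA range in the others.

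Other cell cycle genes, listed apart from the 54, were also high in FK sets 1 and 2. The other mitosis genes summed to 1318, 1866 and 944 CPM in FK sets 1, 2 and 3, 985, 737 and 984 CPM in FA and 782, 844 and 891 CPM in WT, and the DNA replication genes to 525, 884 and 307 CPM in FK sets 1, 2 and 3, 351, 313 and 353 CPM in FA and 243, 218 and 299 CPM in WT. Of 95 other mitosis genes, 92 were in the table and 88 tested. Of these 21 rose in FK and none fell, with a median log2 change of 2.24. Over all genes tested 3.04% rose and 1.73% fell, at a median of 0.05. CDC25A, a phosphatase that activates cyclin-dependent kinases, stood at 5.37, 8.69 and 1.69 CPM in FK sets 1, 2 and 3, at 0.926, 0.794 and 1.09 CPM in FA and at 0.383, 0.306 and 0.389 CPM in WT. CKAP2, a spindle microtubule protein, had 19.7, 27.0 and 6.06 CPM in the FK sets, 4.12, 3.00 and 5.09 CPM in the FA sets and 1.34, 1.47 and 2.09 CPM in the WT sets. In both, all FK and all FA sets were above WT, as in 5.27% of all genes tested. They were named for the smallest p of their list, a choice that favours such separation. Of 90 tested without FK set 3, 69 were called higher, beside 18.7% of all genes, and 1 lower.

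Of 42 DNA replication genes 39 were tested, of which 7 rose and none fell, at a median of 2.16. The shares over all genes were 3.04% higher and 1.73% lower, at a median of 0.05. DBF4, the activator of the replication kinase CDC7, had 19.0, 22.4 and 13.0 CPM in the FK sets, 11.1, 8.54 and 11.1 CPM in the FA sets and 4.07, 3.93 and 4.16 CPM in the WT sets. TYMS, which makes thymidylate, had 13.6, 18.2 and 7.28 CPM in FK, against 6.17, 4.99 and 5.52 CPM in FA and 2.33, 1.37 and 1.90 CPM in WT. Here too every FK and FA set lay above every WT set, as in 5.27% of all genes tested. DBF4 and TYMS were named for the smallest p of their list, a choice that favours such separation. Others of the list lacked it, such as MCM2, at 1.72 CPM in FK set 3 and 1.38 to 3.01 CPM in WT. Of 21 cyclins, E2F factors and inhibitors that act before replication 19 were tested, of which 3 rose and none fell, at a median of 1.77. CDKN1A, an inhibitor of cyclin-dependent kinases, had 39.7, 60.6 and 34.5 CPM in the FK sets, 49.7, 26.9 and 34.1 CPM in the FA sets and 11.0, 13.2 and 15.4 CPM in the WT sets. E2F8, a repressor of cell cycle genes, had 5.82, 12.6 and 0.929 CPM in FK, against 0.393, 0.211 and 0.318 CPM in FA and 0.208, 0.161 and 0.486 CPM in WT. The third was CCNE1, the cyclin of replication onset. CDKN1A was above WT in every FK and FA set, and E2F8 in every FK set. Both were likewise named for the smallest p of their list. Without FK set 3, 32 of 39 replication genes and 15 of 19 of the last list were called higher, beside 18.7% of all genes. In that fit 1 of the last list was called lower. Between FA and WT none of the 3 lists held a call in the fit of all 9 sets, where their medians were 0.22, 0.49 and 0.09. With FK set 3 left out, 2 replication genes and 1 gene of the last list were called higher in FA. The share of all genes for that comparison is not given here.

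Erythroid (TFR2 apart), neutrophil and megakaryocyte markers were high in the same FK sets as the mitosis and spindle genes. Their part in the result was not tested. The summed level of 10 neutrophil and myeloid precursor markers was 1202, 2069 and 27.2 CPM in FK sets 1, 2 and 3, 25.4, 40.8 and 18.9 CPM in FA and 16.2, 27.5 and 24.2 CPM in WT. Of the 8 tested, 4 rose in FK and none fell, and all 10 were called higher without FK set 3. Over all genes 3.04% rose and 1.73% fell, and 18.7% were called higher without FK set 3. S100A9, a calcium-binding protein abundant in neutrophils, had 577, 849.7 and 8.26 CPM in the FK sets, 7.30, 13.1 and 6.09 CPM in the FA sets and 4.38, 7.31 and 9.12 CPM in the WT sets. Of 12 erythroid markers tested none was called, but of 13 tested without FK set 3, 12 were called higher and TFR2 lower. The sum over all 13 was 841, 2159 and 418 CPM in FK sets 1, 2 and 3. In FA it was 422, 639 and 315 CPM and in WT 498, 390 and 580 CPM. The erythroid sum without TFR2 was 727, 2013 and 14.5 CPM in FK sets 1, 2 and 3, 19.8, 24.9 and 6.79 CPM in FA and 17.8, 31.9 and 98.8 CPM in WT. TFR2, set aside after its values were seen because hepatocytes also express it, had 113, 146 and 404 CPM in the FK sets, 402, 614 and 309 CPM in the FA sets and 480.1, 358 and 482 CPM in the WT sets. The 5 megakaryocyte markers summed to 67.1, 55.0 and 1.44 CPM in FK sets 1, 2 and 3, 1.04, 1.52 and 1.07 CPM in FA and 2.204, 0.709 and 1.83 CPM in WT, with 1 of 3 tested called higher in FK and 5 of 5 without FK set 3.

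None of the erythroid, neutrophil or megakaryocyte markers was at 0 over a whole group. RHAG, an erythroid membrane protein, was at 15.3 and 45.2 CPM in FK sets 1 and 2 and at 0 in FK set 3, against at most 0.178 CPM in the FA and WT sets (WT set 3). Of the other lists, the summed level of B and plasma cell markers was lower in FK sets 1 and 2 than in the other 7 sets. This rested on JCHAIN, at 1.84 and 1.55 CPM in FK sets 1 and 2 and at least 25.4 CPM in every other set. CD79B of the same list went the other way within FK, at 1.10, 1.62 and 0.456 CPM in FK sets 1, 2 and 3. The remaining sums did not separate FK sets 1 and 2 from all others. The 9 Kupffer cell and macrophage markers summed to 750.2, 544 and 541 CPM in FK sets 1, 2 and 3, 410.2, 414 and 349.7 CPM in FA and 789, 607 and 640.4 CPM in WT, with 1 of 8 called higher. This was the scavenger receptor CD163, at 31.0, 27.9 and 1.30 CPM in the FK sets, 0.309, 0.373 and 1.25 CPM in the FA sets and 0.192, 0.322 and 0.130 CPM in the WT sets, high in FK sets 1 and 2. With FK set 3 left out, 3 of 9 Kupffer cell and macrophage markers were called higher and 1 lower. Over all genes 18.7% were called higher in that fit, and 3.04% higher and 1.73% lower in the fit of all sets. The 10 T and NK cell markers summed to 7.46, 9.37 and 2.99 CPM in FK sets 1, 2 and 3, 5.89, 3.95 and 8.33 CPM in FA and 7.28, 9.12 and 7.76 CPM in WT, with 1 called lower, CD5. Here 7 were called lower and 1 higher when FK set 3 was left out. Most of the sum in FK sets 1 and 2 came from NKG7, at 3.20 and 5.67 CPM, and CD8A, at 3.80 and 2.14 CPM. NKG7 was at most at 0.301 CPM in every other set. The 7 B and plasma cell markers summed to 3.68, 5.73 and 29.3 CPM in FK sets 1, 2 and 3, 37.9, 28.7 and 32.01 CPM in FA and 90.0, 84.5 and 98.4 CPM in WT, with 1 called lower, MS4A1, and 2 called lower without FK set 3. In that fit 1 B and plasma cell marker was also called lower in FA than in WT. The shares of all genes called lower than WT without FK set 3 are not given here.

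Of 9 hepatocyte markers 1 was called higher in FK, the apolipoprotein gene APOA1, with 2716, 2564 and 74.8 CPM in the FK sets, 62.1, 115 and 62.6 CPM in the FA sets and 28.0, 34.2 and 49.2 CPM in the WT sets. APOA1 too was high in FK sets 1 and 2, and its part in the result was not tested. TF and APOB were also highest in FK sets 1 and 2. TTR, ASGR1 and HNF4A were instead lowest there. TTR stood at 838 and 1136 CPM in FK sets 1 and 2, against at least 3293 CPM in every other set. ASGR1 stood at 216 and 212 CPM and HNF4A at 219 and 238 CPM, against at least 296 CPM in every other set for both. Among markers of bile duct and endothelium, 1 of 4 and 1 of 6 were called lower, SOX9 and CLEC4G. None of 6 stellate cell markers was called. The same fit called 3.04% of all genes higher and 1.73% lower. In the fit without FK set 3, 3 hepatocyte markers were called higher and 3 lower, and 2 stellate cell markers higher and 2 lower. In it 1 bile duct marker was called higher and 1 lower, and 1 endothelial marker lower. That fit called 18.7% of all genes higher, and its share called lower is not given here. The stellate sums were 148, 214 and 144 CPM in FK sets 1, 2 and 3, 156, 109 and 119 CPM in FA and 189, 229 and 239 CPM in WT. The endothelial sums were 293, 173 and 173 CPM in FK sets 1, 2 and 3, 185, 137 and 123 CPM in FA and 231, 218 and 272 CPM in WT, and the bile duct sums 12.8, 40.5 and 4.12 CPM in FK sets 1, 2 and 3, 9.46, 6.79 and 12.8 CPM in FA and 14.9, 17.3 and 13.5 CPM in WT.

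**Figure D5:**
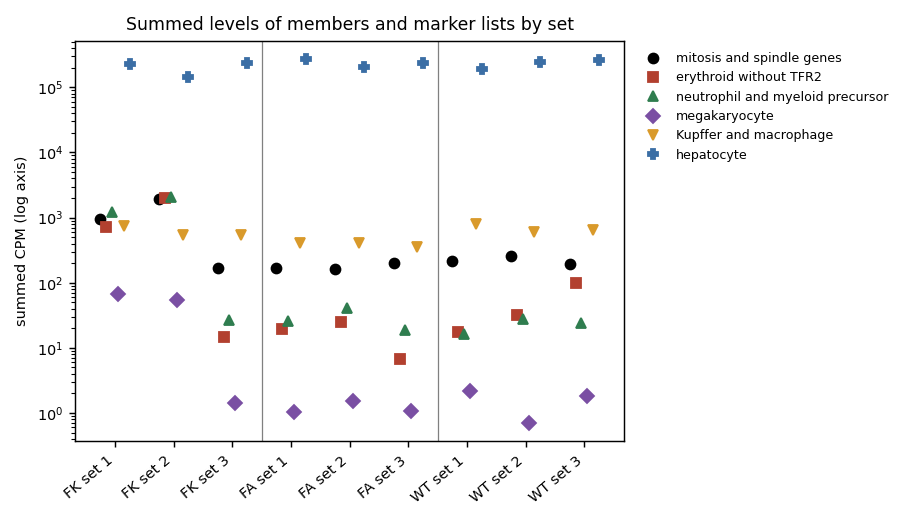
Summed CPM (log axis) of the 54 mitosis and spindle genes and of marker lists of blood, Kupffer and liver cells in the 9 sets. The mitosis, erythroid (without TFR2), neutrophil and megakaryocyte sums are all high in FK sets 1 and 2 and low in the other 7 sets. The hepatocyte sum, most of it ALB, stays between 145924 and 272765 CPM.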

How the data were processed

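One table of 36 libraries was used. The authors deposited estimated counts per gene as whole numbers; the 36 values over 1 M end in 0, as if printed to 6 digits. Per the submitters' processing notes Salmon 0.14.1 was used; its role, the genome build, annotation and strand setting were not given in the sources used here. Libraries of a set were summed: they correlated at a median r of 0.996 within sets and 0.980 between sets of a group, and no label makes them separate animals. All 9 sets entered one edgeR 4.0.16 fit (R 4.3.3) by the quasi-likelihood method, scaled by TMM and filtered by filterByExpr on the groups, with Benjamini-Hochberg adjustment over 14939 genes. All 54 members passed this filter; 26 reached 1 CPM in 3 sets. Standard errors are the log2 change divided by the root of F. Scripts were tested on simulated data.

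Members, lists and tests were chosen with earlier results of these data known. Kinesin, checkpoint, cyclin and condensin genes were named in full; in other roles the members with the smallest and largest p, in other lists the 1 or 2 with the smallest p or those called. Of 248 other list genes, 230 were found, some under LOC identifiers that RefSeq (assembly mOryCun1.1) names; coordinates of RefSeq served only to find overlaps (17 of 54 members, 8 with a protein-coding gene). Alternatives were DESeq2 1.42.0, RLE factors, 2 other filters, the 2 compared groups alone, a replicate block, limma-voom (limma 3.58.1) with all 36 libraries and sets as random blocks (correlation 0.791), and each set left out. A search of promoters for motifs was planned but not run. Figures were drawn with matplotlib 3.10.9.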

Additional observations from a re-analysis of the deposited data

Results flagged for a closer look

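In WT set 3, 1 of the 4 libraries had a summed level of the 54 genes of 186 CPM, against 193 to 194 CPM in the other 3, a gap large beside the range of the set. Of 9 sets examined in this way 1 stood out, and chance alone marks about 1 in 20.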

How the results depend on the processing

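The count of 24 members called between FK and WT was 50 with DESeq2 (49 higher, 1 lower), 15 with a filter of 1 CPM in 3 sets, which tests 26 members, and 0 with FK and WT fitted alone. It was 21 with RLE factors, 26 with no filter and 19 with limma-voom (18 higher and AURKA lower, of 38 members tested). Leaving out each set gave 0 to 49, where 49 came without FK set 3 and 0 without each of the other 8 sets. Between FA and WT the count was 0, and 1 with limma-voom (PRC1, lower). Between FA and FK the count of 0 became 48 with DESeq2 and 16 with limma-voom (of 38 tested), and 0 to 49 when each set was left out, 49 without FK set 3. The shares of all genes called with RLE factors, the other filters, limma-voom or a set other than FK set 3 left out are not given here. Those counts therefore cannot be set beside all genes. With the set number as a replicate block 0 members were called between FK and WT, beside 47 of the 14939 genes tested. Same-numbered sets deviated together at r of -0.09 to 0.10, and not every set correlated best with its own number, so the numbers were not taken as pairs. Uncalled log2 changes turned direction for SMC2 between FK and WT (-0.44 without FK set 2 and -0.08 without WT set 1, in a range of -0.44 to 0.54 over the sets left out), for PTTG1 (-0.03 without FK set 2, range -0.03 to 0.68) and for AURKA between FA and FK (-0.04 without FA set 2, range -0.04 to 0.39). The cause was not tested. Over the 16 alternatives a member's call between FK and WT was lost 249 times and gained 62 times, each with the sign kept. The sign turned in 3 further cases over 2 members, SMC2 and PTTG1. Between FA and WT 14 members changed sign in at least 1 alternative. Counts of under 10 in a set limit the precision of the low members, and the motif search in promoters was not run.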
